A study of Mus musculus with 9 samples.

Results

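This report covers 10 inflammasome and pyroptosis genes in RAW264.7 macrophages: the sensors Nlrp3, Nlrp1b, Nlrc4, Naip5 and Aim2, the adaptor Pycard, the caspases Casp1 and Casp4, and the effectors Gsdmd and Il18. They were taken as a list by name, and all 10 symbols were matched to the 55487 Ensembl gene identifiers of the count lists. RNA was sequenced from unstimulated cells in 9 libraries, 3 for each of 3 genotypes. RAW264.7 is a macrophage-like line obtained from a BALB/c mouse tumour induced by Abelson leukaemia virus. The wild-type (WT) cells carried intact Cebpd, the gene of the transcription factor C/EBPδ. In the ΔTAD cells CRISPR/Cas9 had removed the transactivation domain of C/EBPδ in frame, and in the knock-out (KO) cells the same editing had left the gene out of frame. Both edits were homozygous, and edited and unedited cells of the line were kept in the same medium with no stimulus. The edited cells were grown from single sorted cells. The series' design text speaks of 3 independent clones, and the labels do not say whether the 3 WT libraries came from separate cultures, so p-values measure the spread between these libraries.

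Inflammasomes are protein platforms that form in the cytosol when a sensor meets a microbial or danger signal. NLRP3, NLRP1B and AIM2 recruit caspase-1, NLRP3 and AIM2 through the adaptor ASC, the product of Pycard, whereas NAIP5 that has bound bacterial flagellin sets off the assembly of NLRC4. Caspase-1 cleaves pro-IL-18 and pro-IL-1β, and caspase-1 or the LPS receptor caspase-11, which mouse Casp4 encodes, cuts gasdermin D to open pores and cause pyroptosis. In macrophages several of these genes are primed by LPS or interferon, and RAW264.7 cells are known for lacking ASC.

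The libraries held between 16113306 and 20981829 counts on genes, so that 3 counts, the floor used here for absence, was worth between 0.143 and 0.210 CPM, counts per 1e6 gene counts after scaling. These limits cover counting error only. ΔTAD replicate 1 stood apart. The chi-square of its counts against the other 2 ΔTAD libraries averaged 186 and 188 over genes. In the 7 other pairs of one genotype it averaged 2.12 to 4.63. Few genes with very many counts can set such a mean, and the part of the ribosomal RNA genes in it was not tested. Genes of ribosomal RNA took 11.7% of the counts of ΔTAD replicate 1 and between 0.346% and 1.22% in the other libraries. Members that lose a call without it, and the total counts of members and of other pathway genes called, are given also without it. The macrophage label was checked on 10 markers, of which 9 were above the floor and Mertk was at 2 counts or fewer. Their summed level ran from 3498 to 3686 CPM in WT, from 4613 to 4995 CPM in KO and from 7126 to 7304 CPM in ΔTAD, and its part in the results below was not tested. Much of that rise was Lyz2, at 1167 ± 61.9 CPM in WT, 2114 ± 146 CPM in KO and 4192 ± 76.4 CPM in ΔTAD (SD, n = 3). Adgre1, Spi1, Cd14, Cd68 and Ptprc were also called higher in both edited genotypes, Adgre1 going from 21.6 to 58.8 and 70.9 CPM. Csf1r was called higher in ΔTAD alone and Itgam in neither. Fcgr1 was called lower in both, standing at 39.5 ± 1.35, 17.8 ± 1.97 and 28.9 ± 2.51 CPM. Of 18 markers of other cell types 15 were at or under the floor and 8 had no count, and their sum reached at most 4.44 CPM in WT, 0.85 CPM in KO and 0.666 CPM in ΔTAD. Cebpd itself stood at 6.51 ± 0.674 CPM in WT, 5.44 ± 0.201 CPM in KO and 5.44 ± 0.669 CPM in ΔTAD (SD, n = 3), and was not called in either comparison with WT (edgeR adjusted p = 0.085 and 0.0931). It is no check of the labels because the edits leave most of the transcript in place.

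Pycard was the 1 member absent from this line. It had 0, 1 and 0 counts in the WT libraries, 0, 2 and 0 in KO and 0, 0 and 0 in ΔTAD, that is 3 counts in all 9 libraries together. With 3 counts as the floor, a level of up to 0.210 CPM remains possible. Before scaling this limit was 0.186 CPM, or 0.049 CPM per kb of exon. The surrounding locus was counted: of the genes within 250 kb of Pycard 17 passed the filter on low counts. Against WT 6 of them were called in KO and 10 in ΔTAD, where 45.2% and 49.7% of all genes were called. A gene on the opposite strand whose exons overlap those of Pycard, Gm45205, took 135 counts in the 9 libraries. The strand setting of the counting is not given in the sources used here, so reads from the stretch these genes share cannot be told apart. Of the 50-base words in the Pycard exons 11.7% also occur in other genes, namely Gm45205 and Mvp.

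The promoters of 5 members are shown because they are the genes the results turn on: the absent gene Pycard, the 3 members with the largest fitted changes against WT (Casp4, Nlrc4 and Naip5), and Casp1, which adjoins Casp4. Each is the 250 bases before the RefSeq start (GRCm38.p6), 5′ to 3′ on the gene's strand, with capitals for letters that match a motif named with the promoter counts further on.
Pycard, chr7:127993868-127994117, minus strand: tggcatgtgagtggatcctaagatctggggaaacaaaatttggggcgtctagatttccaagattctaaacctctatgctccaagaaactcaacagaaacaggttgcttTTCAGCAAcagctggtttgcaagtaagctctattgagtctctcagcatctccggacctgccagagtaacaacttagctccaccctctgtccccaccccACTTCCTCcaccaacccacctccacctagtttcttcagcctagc
Casp4, chr9:5308599-5308848, plus strand: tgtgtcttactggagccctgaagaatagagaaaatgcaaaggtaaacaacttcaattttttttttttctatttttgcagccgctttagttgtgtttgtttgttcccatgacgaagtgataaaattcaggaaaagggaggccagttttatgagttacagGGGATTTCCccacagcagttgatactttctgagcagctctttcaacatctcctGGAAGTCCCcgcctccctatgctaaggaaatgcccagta
Casp1, chr9:5298267-5298516, plus strand: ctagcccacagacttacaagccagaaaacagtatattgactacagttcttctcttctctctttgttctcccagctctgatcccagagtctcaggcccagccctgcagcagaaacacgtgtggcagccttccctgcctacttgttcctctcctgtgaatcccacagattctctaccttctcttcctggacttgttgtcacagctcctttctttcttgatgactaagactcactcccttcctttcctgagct
Nlrc4, chr17:74459109-74459358, minus strand: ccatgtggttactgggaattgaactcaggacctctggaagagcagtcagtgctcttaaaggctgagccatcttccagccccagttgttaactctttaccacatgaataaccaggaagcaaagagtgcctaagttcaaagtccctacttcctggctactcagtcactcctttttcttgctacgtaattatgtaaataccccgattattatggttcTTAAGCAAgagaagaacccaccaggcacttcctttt
Naip5, chr13:100247337-100247586, minus strand: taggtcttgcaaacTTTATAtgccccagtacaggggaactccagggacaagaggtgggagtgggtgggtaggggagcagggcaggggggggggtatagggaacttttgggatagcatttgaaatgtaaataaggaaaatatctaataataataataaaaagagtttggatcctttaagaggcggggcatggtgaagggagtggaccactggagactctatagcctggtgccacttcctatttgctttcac
For Naip5 the RefSeq start lies 1013 bases from the gene start in the GENCODE annotation used for positions here, and for the other 4 the distance is at most 34 bases.

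KO cells lack C/EBPδ and ΔTAD cells its transactivation domain, and each was compared at rest with WT. The edited cells were grown from single cells and no label states the clone of a library, so edit and clone cannot be told apart. Both edited genotypes carried more RNA of the NAIP-NLRC4 arm, of both caspases and of gasdermin D than WT, and less of Nlrp3, Aim2 and Il18. Casp4 rose most, 3.59-fold in KO and 5.76-fold in ΔTAD. In bulk RNA a change in the share of cells expressing a gene and a change in RNA per cell cannot be told apart. With edgeR's quasi-likelihood test and a Benjamini-Hochberg adjusted p under 0.01 over 14312 genes, 8 of the 9 members tested were called in KO against WT, 5 higher and 3 lower, where 45.2% of all genes were called, 22.8% higher and 22.4% lower. In ΔTAD against WT 9 of 9 were called, 6 higher and 3 lower, where 49.7% of all genes were called, 26.3% higher and 23.4% lower. The median log2 fold change of the 9 members was 0.70 in KO and 0.81 in ΔTAD, and that of all tested genes was -0.0011 and -0.0033. Both comparisons use the same 3 WT libraries. Between the edited genotypes the members differed less: 5 of 9 were called in KO against ΔTAD, 1 higher and 4 lower in KO, beside 33% of all genes, 13.9% higher and 19.1% lower. Scaled by library size alone, 4 members were called, 3 lower in KO and Nlrp3 higher, while 69.0% of all calls were then higher in KO, against 42.1% in the fit used here. Without ΔTAD replicate 1, 8 members were called in KO against WT, 8 in ΔTAD against WT and 4 in KO against ΔTAD.

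**Figure D1:**
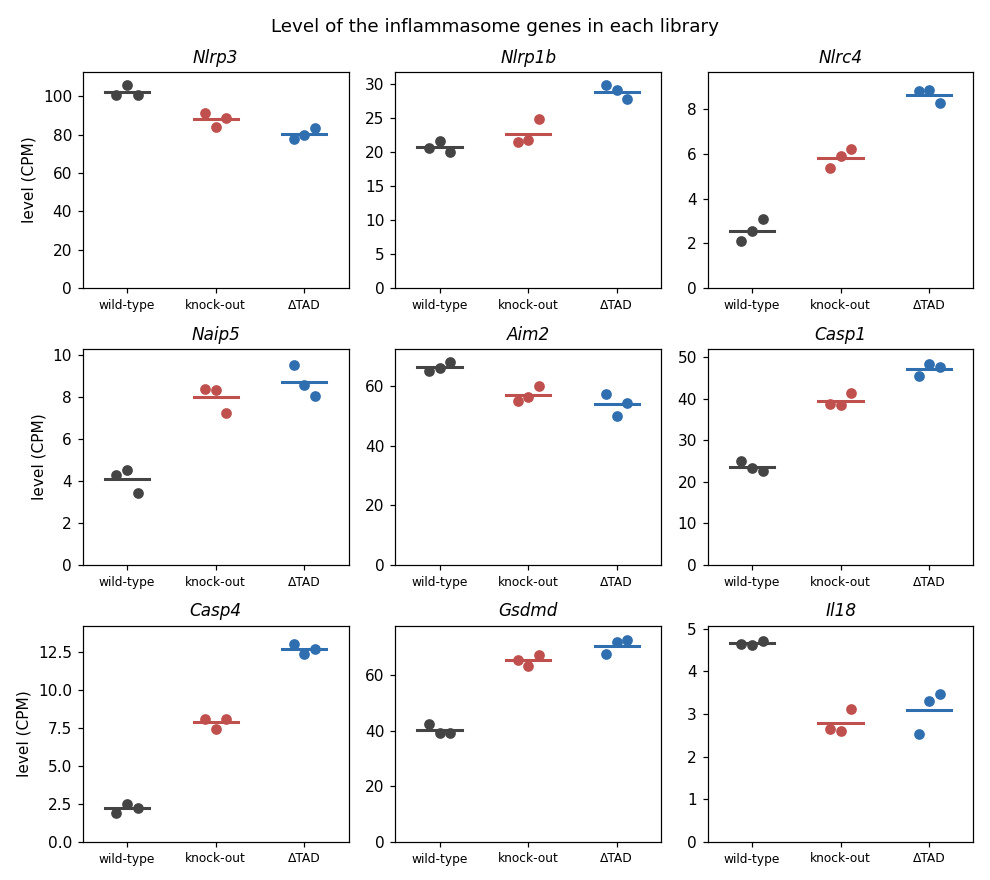
Level in CPM (linear axis from 0) of the 9 tested members in each of the 9 libraries; each point is a library and each bar the mean of 3. Libraries of the 3 genotypes sit apart for Casp4, Nlrc4 and Casp1, whereas for Nlrp1b the WT and KO libraries overlap.

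Among the sensors, Nlrc4 and Naip5 stood low in WT and higher in both edited genotypes. Nlrc4 (chr17:74425438-74459142, minus strand) encodes the adaptor-like receptor that assembles on activated NAIPs. It was at 2.09, 2.55 and 3.09 CPM in WT, at 5.38, 5.92 and 6.23 CPM in KO and at 8.81, 8.88 and 8.28 CPM in ΔTAD. No library of one genotype overlapped another, the order being WT, KO, ΔTAD. The change was 2.29-fold in KO (log2 1.19 ± 0.149, SE, edgeR adjusted p = 2.36e-07) and 3.39-fold in ΔTAD (log2 1.76 ± 0.138, edgeR adjusted p = 5.79e-11). Most genes of its chromosome were higher too, and relative to them its change in KO was log2 0.71, under those of Naip5, Casp1 and Gsdmd fitted the same way (log2 0.95, 0.77 and 0.73). Between the edited genotypes Nlrc4 was 1.48-fold lower in KO (edgeR adjusted p = 0.000358).

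Naip5 (chr13:100211739-100246323, minus strand) encodes the flagellin receptor of the same complex. Its levels were 4.29, 4.51 and 3.45 CPM in WT, 8.38, 8.34 and 7.25 CPM in KO and 9.51, 8.60 and 8.04 CPM in ΔTAD. All 6 edited libraries lay above all 3 WT libraries, and KO and ΔTAD overlapped. The rise was 1.95-fold in KO (log2 0.96 ± 0.127, edgeR adjusted p = 5.44e-07) and 2.11-fold in ΔTAD (log2 1.07 ± 0.124, edgeR adjusted p = 5.78e-08), and the difference between them did not pass (log2 -0.11 ± 0.109, edgeR adjusted p = 0.422). Of the 50-base words in the Naip5 exons 36.9% also occur in other genes, mainly Naip6, Naip3 and Naip1, so its counts are uncertain against these copies. For the other 8 tested members this share was at most 1.45%.

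The 2 sensors with the most counts went the other way by small amounts. Nlrp3 (chr11:59541568-59566956, plus strand), the sensor of potassium efflux and membrane damage, was at 100.7, 105.9 and 100.3 CPM in WT, at 91.4, 83.7 and 88.5 CPM in KO and at 77.7, 79.9 and 83.3 CPM in ΔTAD. The 3 genotypes did not overlap, although KO and ΔTAD nearly touched. It was 1.16-fold lower in KO (log2 -0.22 ± 0.0375, edgeR adjusted p = 2.39e-05) and 1.27-fold lower in ΔTAD (log2 -0.35 ± 0.0377, edgeR adjusted p = 2.06e-08). Nlrp3 was the 1 member called higher in KO than in ΔTAD (log2 0.13 ± 0.0383, edgeR adjusted p = 0.00838), and without ΔTAD replicate 1 that call was lost (edgeR adjusted p = 0.0148). Without KO replicate 1, KO replicate 3 or ΔTAD replicate 2 it was lost too (edgeR adjusted p = 0.053, 0.0222 and 0.04), as it was with DESeq2 (adjusted p = 0.0163) and limma-voom (adjusted p = 0.0149).

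Aim2 (chr1:173350879-173466040, plus strand), the cytosolic DNA sensor, followed a similar course. Its libraries were at 65.2, 66.1 and 68.1 CPM in WT, at 54.9, 56.3 and 59.8 CPM in KO and at 57.2, 49.9 and 54.2 CPM in ΔTAD. All edited libraries lay under all WT libraries. It fell 1.17-fold in KO (log2 -0.22 ± 0.0462, edgeR adjusted p = 0.000242) and 1.24-fold in ΔTAD (log2 -0.31 ± 0.0463, edgeR adjusted p = 2.95e-06), while KO and ΔTAD overlapped (edgeR adjusted p = 0.126).

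Nlrp1b (chr11:71153102-71230733, minus strand), the sensor cleaved by anthrax lethal factor, was the member whose calls against WT were not the same in the edited genotypes. It stood at 20.54, 21.59 and 20.04 CPM in WT, at 21.5, 21.7 and 24.9 CPM in KO and at 29.7, 29.1 and 27.7 CPM in ΔTAD. WT and KO overlapped and the ΔTAD libraries were above all others. The difference was 1.39-fold in ΔTAD (log2 0.47 ± 0.0682, edgeR adjusted p = 1.86e-06), and in KO it did not pass (log2 0.13 ± 0.0711, edgeR adjusted p = 0.130). Tested directly, Nlrp1b was 1.27-fold lower in KO than in ΔTAD (log2 -0.34 ± 0.0674, edgeR adjusted p = 0.000214).

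Both caspase genes rose, and by unequal amounts. They lie in a row on the plus strand of chromosome 9, Casp1 at chr9:5298517-5307265 and Casp4 at chr9:5308828-5336783, 1.56 kb apart. Casp4 was at 1.89, 2.49 and 2.24 CPM in WT, at 8.12, 7.43 and 8.10 CPM in KO and at 13.0, 12.3 and 12.7 CPM in ΔTAD. The 3 genotypes lay far from one another relative to their spread, with the highest WT library at 43 counts and the lowest edited library at 123. The change was log2 1.85 ± 0.134 in KO (edgeR adjusted p = 1.69e-11) and log2 2.53 ± 0.122 in ΔTAD (edgeR adjusted p = 5.46e-15). KO was 1.60-fold below ΔTAD (log2 -0.68 ± 0.094, edgeR adjusted p = 2.91e-06).

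Casp1, the gene of the IL-1β converting enzyme, had more RNA than its neighbour in every library. It was at 25.1, 23.3 and 22.7 CPM in WT, at 38.8, 38.6 and 41.4 CPM in KO and at 45.5, 48.4 and 47.7 CPM in ΔTAD. The genotypes again did not overlap, in the same order as for Casp4. Casp1 rose 1.67-fold in KO (log2 0.74 ± 0.058, edgeR adjusted p = 7.56e-11) and 1.99-fold in ΔTAD (log2 0.99 ± 0.0564, edgeR adjusted p = 1.32e-13), and was 1.19-fold lower in KO than in ΔTAD (edgeR adjusted p = 0.00032), a call lost when libraries were scaled by size alone (log2 -0.19, edgeR adjusted p = 0.0424). Counts of Casp1 per count of Casp4 were 10.9 ± 2.06 in WT, 5.03 ± 0.219 in KO and 3.73 ± 0.211 in ΔTAD (SD, n = 3), so the WT excess of Casp1 narrowed.

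The 2 effectors moved in opposite directions. Gsdmd (chr15:75862327-75867408, plus strand), whose product forms the pyroptotic pore, was at 42.4, 39.1 and 39.4 CPM in WT, at 65.7, 63.3 and 67.5 CPM in KO and at 67.6, 72.1 and 72.6 CPM in ΔTAD. Every edited library was above every WT library. It rose 1.62-fold in KO (log2 0.70 ± 0.0452, edgeR adjusted p = 1.91e-12) and 1.76-fold in ΔTAD (log2 0.81 ± 0.0445, edgeR adjusted p = 6.32e-14). KO and ΔTAD did not overlap, their ranges nearly touching, and the difference did not pass (log2 -0.12 ± 0.0415, edgeR adjusted p = 0.0268).

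Il18 (chr9:50554827-50581840, plus strand), the gene of the cytokine precursor that caspase-1 matures, was at 4.64, 4.63 and 4.72 CPM in WT, at 2.64, 2.60 and 3.12 CPM in KO and at 2.52, 3.31 and 3.47 CPM in ΔTAD. All edited libraries were under the WT libraries, and ΔTAD replicate 1 was the lowest of the 9. It fell 1.67-fold in KO (log2 -0.74 ± 0.155, edgeR adjusted p = 0.000245) and 1.47-fold in ΔTAD (log2 -0.56 ± 0.150, edgeR adjusted p = 0.00241). The ΔTAD call rests on ΔTAD replicate 1: without it the change was log2 -0.48 (edgeR adjusted p = 0.0125). Between KO and ΔTAD the test did not pass (edgeR adjusted p = 0.394).

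**Figure D2:**
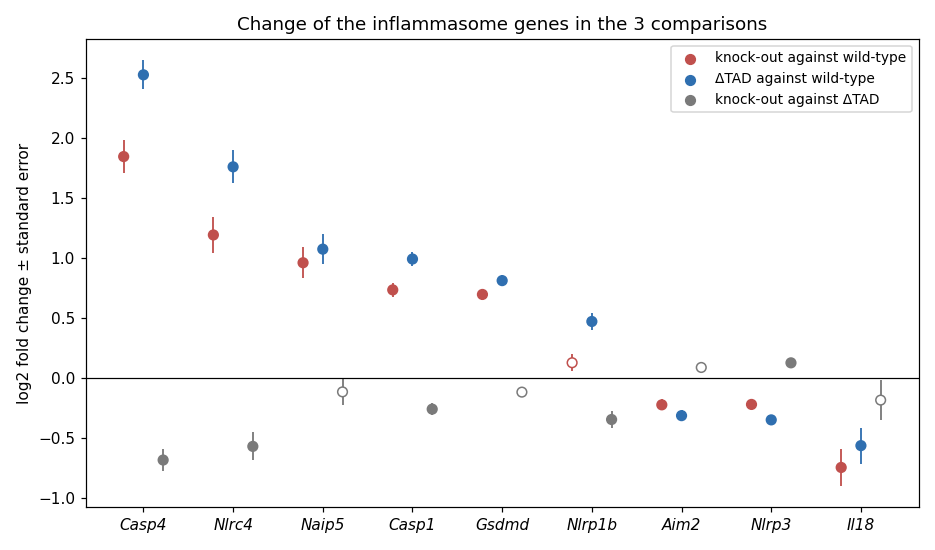
Fitted log2 fold change ± standard error of each tested member in the 3 comparisons; filled points passed an edgeR adjusted p under 0.01 and open points did not. Casp4 and Nlrc4 lie highest against WT and lowest in KO against ΔTAD, and Il18, Nlrp3 and Aim2 lie under 0 in both edited genotypes.

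Compared per length, the members spanned a wide range of levels, and their order was not the same in the 3 genotypes. In WT the mean levels per kb of exon were 25.2 CPM for Nlrp3, 18.99 CPM for Aim2, 16.96 CPM for Gsdmd and 15.8 CPM for Casp1, followed by 4.52 CPM for Il18 and 3.29 CPM for Nlrp1b. Naip5 at 0.785 CPM per kb, Casp4 at 0.595 CPM per kb and Nlrc4 at 0.536 CPM per kb closed the order before Pycard. The place of Naip5 is uncertain, because 36.9% of its 50-base exon words also occur in other genes. The library ranges of Gsdmd and Casp1 overlapped, as did those of Naip5 and Casp4 and of Casp4 and Nlrc4. These levels put Nlrp3 at the percentile 84.7 of 14301 tested genes with a length, and Nlrc4 at 11.05. In KO Gsdmd with 27.6 CPM per kb and Casp1 with 26.4 CPM per kb, which overlapped, came ahead of Nlrp3 with 21.7 CPM per kb and Aim2 with 16.3 CPM per kb. In ΔTAD Casp1 with 31.5 CPM per kb and Gsdmd with 29.8 CPM per kb overlapped at the top, ahead of Nlrp3 with 19.8 CPM per kb and Aim2 with 15.4 CPM per kb. Casp4 rose from the percentile 12.2 in WT to 29.9 in KO and 38.2 in ΔTAD, where at 3.42 CPM per kb its range overlapped that of Il18 at 3.01 CPM per kb. With the longest transcript as the length, Casp4 came before Naip5 in WT and before Il18 in KO, and Gsdmd before Casp1 in ΔTAD. Gsdmd and Casp1 then overlapped in no genotype (35.3 to 37.7 and 25.8 to 27.6 CPM per kb in KO), and Gsdmd overlapped Aim2 in WT. Casp4 then overlapped neither Naip5 nor Nlrc4 in WT, and in ΔTAD at 6.67 CPM per kb it lay above Il18 at 3.50 CPM per kb without overlap.

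**Figure D3:**
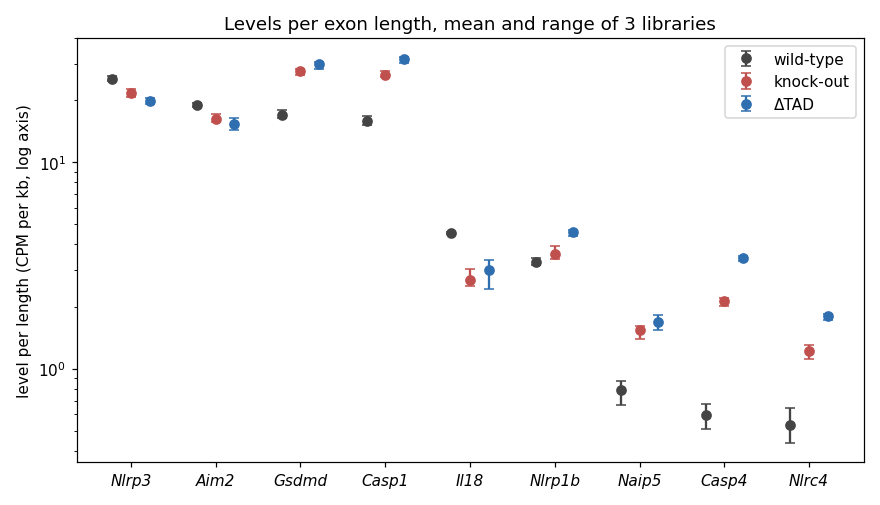
Mean level per kb of exon (log axis) of the 9 tested members in each genotype; bars span the lowest and highest of 3 libraries. Gsdmd and Casp1 pass Nlrp3 in both edited genotypes, and Naip5, Casp4 and Nlrc4 lie under 1 CPM per kb in WT alone.

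Other genes of the pathway moved with the members only in part. Of 95 further genes listed, 91 were matched, 25 were at or under the floor, 12 were too low to test and 54 were tested. In KO 21 were higher and 12 lower than in WT (61.1% called, beside 45.2% of all genes), in ΔTAD 28 were higher and 12 lower (74.1%, beside 49.7%), and in KO against ΔTAD 9 were higher and 20 lower (53.7%, beside 33%). Without ΔTAD replicate 1, 23 were higher and 12 lower in KO, 25 higher and 13 lower in ΔTAD, and 9 higher and 18 lower in KO against ΔTAD. Their median log2 fold change was 0.11 in KO and 0.26 in ΔTAD. Genes at or under the floor included Il1b, whose precursor protein caspase-1 also cleaves, Nlrp6, and the pyrin gene Mefv. Casp12 and the guanylate-binding protein genes Gbp4 and Gbp6 were at or under it too. The counts of each list below stand beside 22.8% of all genes higher and 22.4% lower in KO, and 26.3% and 23.4% in ΔTAD.

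Among the other sensors 4 were tested and 3 were higher in each edited genotype, with none lower. Naip6, another flagellin receptor 34.8 kb from Naip5, was at 5.03 ± 0.708 CPM in WT, 9.39 ± 0.347 CPM in KO and 10.8 ± 0.771 CPM in ΔTAD (SD, n = 3), a rise of log2 0.91 and 1.11. Naip2, which binds the rod protein of bacterial secretion systems, rose less, by log2 0.31 and 0.41. Counts of Naip5 per count of Naip6 were 0.820 ± 0.141 in WT, 0.852 ± 0.0724 in KO and 0.809 ± 0.0837 in ΔTAD, within the spread of the libraries, and the exon words that these copies share limit this ratio. Nlrp10 rose by log2 0.34 in KO and 0.31 in ΔTAD.

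The HIN-200 genes, relatives of Aim2 in one cluster on chromosome 1, held some of the largest changes and no common direction. Ifi213, which lies 100 kb from Aim2, fell by 2.26 on the log2 scale in KO and by 1.95 in ΔTAD, and Ifi207 rose by log2 0.67 and 0.51. Mndal was at 4.53 ± 0.237 CPM in WT, 0.768 ± 0.137 CPM in KO and 7.93 ± 1.08 CPM in ΔTAD, and was called in opposite directions (log2 -2.54 in KO and 0.80 in ΔTAD). Ifi203 and Ifi204 were higher in ΔTAD, by log2 1.54 and 1.17, and had not passed in KO (log2 0.64 and -0.38). The span of Mndal overlaps that of Ifi203 on the same strand, and shared 50-base words were not searched in this list. How reads were assigned between such genes was not tested. Across the 6 tested genes 2 were higher and 2 lower in KO, and 4 higher and 1 lower in ΔTAD.

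Of the 15 inflammasome regulators tested, 8 were higher and 3 lower in KO, and 7 were higher and 4 lower in ΔTAD. Nek7, the kinase that licenses NLRP3, rose by log2 0.48 and 0.50, and the kinase gene Prkcd by 0.62 and 0.89. Serpinb1a, an inhibitor of neutrophil proteases and inflammatory caspases, went from 10.8 ± 0.970 CPM in WT to 42.5 ± 1.71 CPM in KO and 3.90 ± 0.793 CPM in ΔTAD, log2 1.97 and -1.44. Cgas, the DNA sensor that signals through STING, was likewise called higher in KO and lower in ΔTAD (log2 0.71 and -0.25). Panx1, the gene of a pannexin channel, was lower in both, by log2 -0.73 and -0.39.

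Of 10 other caspases and cell death partners tested, 3 were higher and 2 lower in KO, and 4 were higher and 3 lower in ΔTAD. The necroptosis kinase gene Ripk3 was lower by log2 -0.89 in KO and -0.59 in ΔTAD and its substrate Mlkl by -0.54 and -0.81, whereas Ripk1 rose by 0.40 and 0.52. Casp8 was not called in either comparison (log2 0.03 and 0.09). Xiap, an inhibitor of caspases, was called higher in KO and lower in ΔTAD (log2 0.24 and -0.25). Of the 7 pore and membrane genes tested, 6 were higher in ΔTAD, among them the ESCRT ATPase gene Vps4a (log2 0.41). In KO 2 were higher and Ninj1, the gene of the membrane rupture protein, was lower (log2 -0.15). Gsdme, another gasdermin gene, rose by log2 0.58 and 0.56.

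The IL-1 family list held large falls and no common direction. Sigirr, an inhibitory receptor that dampens IL-1 signalling, stood at 9.32 ± 0.991 CPM in WT, 1.31 ± 0.163 CPM in KO and 0.902 ± 0.135 CPM in ΔTAD, log2 -2.82 and -3.35. The receptor subunit genes Il18rap (log2 -2.09 and -1.93) and Il1rap (3.99-fold and 2.8-fold lower) fell with it. Il1rl1, the gene of the IL-33 receptor, was the 1 gene higher in KO, at 62.8 ± 4.29 CPM in WT, 85.9 ± 3.93 CPM in KO and 63.4 ± 1.09 CPM in ΔTAD (log2 0.45 and 0.01). The antagonist gene Il1rn rose in ΔTAD (log2 0.88) and had not passed in KO (log2 0.09), and Myd88 was called lower in KO and higher in ΔTAD (log2 -0.35 and 0.14). Of 9 genes tested 1 was higher and 4 lower in KO, and 3 were higher and 4 lower in ΔTAD. Among the GTPases 3 of 13 could be tested, and Irgm1 rose by log2 0.67 and 0.34.

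**Figure D4:**
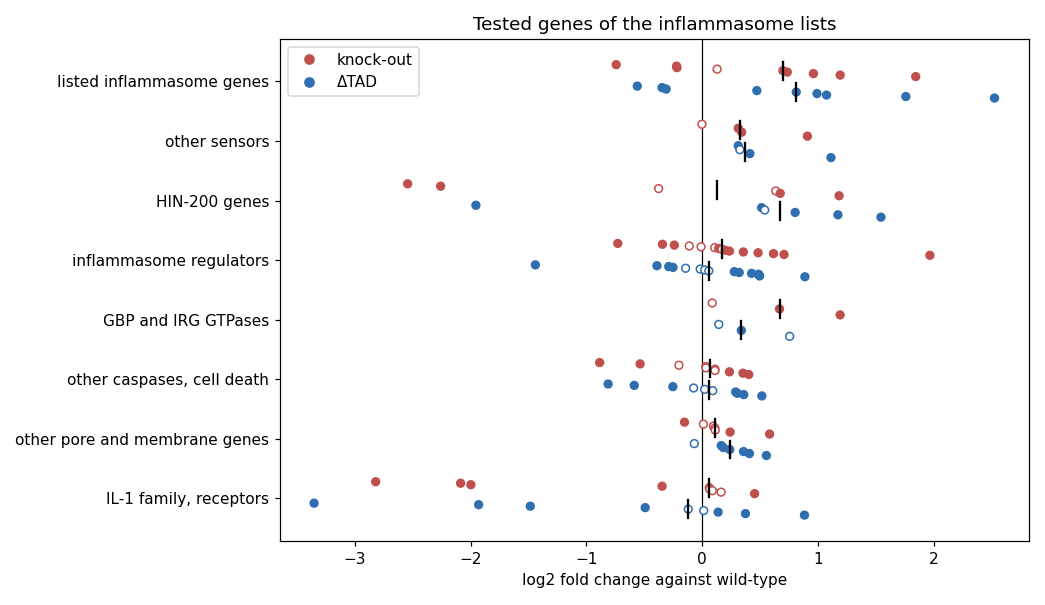
Log2 fold change against WT of every tested gene of the member list and the 7 other lists, KO in red and ΔTAD in blue; filled points passed an edgeR adjusted p under 0.01, open points did not, and black ticks mark medians. The members' medians of 0.70 and 0.81 lie to the right of 0, and the IL-1 family list reaches to -3.35.

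Several members lay beside genes that were called in the same direction. Beyond the pairs and clusters already named (Casp1 with Casp4, Naip5 with Naip6 and Naip2, and Aim2 with Ifi213), this was seen around Nlrc4 and Il18, and around Gsdmd in ΔTAD alone. Of 15 genes tested within 250 kb of Gsdmd 6 were higher and 0 lower in ΔTAD, and 2 higher and 2 lower in KO. Of all genes 26.3% were higher in ΔTAD and 22.8% in KO. Around Nlrp3, itself lower, 4 of 9 were higher and 1 lower in each edited genotype. Of 8 around Nlrp1b 2 were higher and 2 lower in KO, and 2 higher and 3 lower in ΔTAD. The 7 within 250 kb of Naip5 had no common direction, 3 being higher and 3 lower in each edited genotype. Nlrc4 lies on chromosome 17, where 66.8% of 746 tested genes were called higher in KO and 62.9% in ΔTAD, with a median log2 fold change of 0.48 and 0.50. Of its 11 tested neighbours within 250 kb 7 were higher in each edited genotype and none lower, with medians of 0.55 and 0.56. Fitted with an offset for each library and chromosome, Nlrc4 still differed from WT, by log2 0.71 ± 0.152 in KO (edgeR adjusted p = 0.000297) and 1.26 ± 0.141 in ΔTAD (edgeR adjusted p = 2.65e-08). For the other 8 tested members the offset changed no call in either comparison against WT. The part of the change along chromosome 17 in the result for Nlrc4 was not tested further. Chromosome 12, which holds no member, was lower in both edited genotypes, with medians of log2 -0.52 in KO and -0.54 in ΔTAD.

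Near Il18 neighbours fell as well, beside 22.4% of all genes called lower in KO and 23.4% in ΔTAD. Of 12 tested within 250 kb 7 were lower in KO and 5 in ΔTAD, with none higher, and medians of -0.31 and -0.20. They included Bco2, which overlaps Il18 on the opposite strand outside its exons (log2 -2.58 and -1.42), the mitochondrial genes Sdhd (log2 -0.37 and -0.18) and Timm8b (log2 -0.33 and -0.22), and Plet1 (log2 -2.43 and -4.00). Casp1 and Casp4 were each other's only tested neighbour at this distance. Over all members, the neighbours were called in 50.6% of 83 cases in KO and 56.6% in ΔTAD, against 45.2% and 49.7% of all genes. These cases include Casp1 and Casp4 as neighbours of each other, so calls of members are among them.

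**Figure D5:**
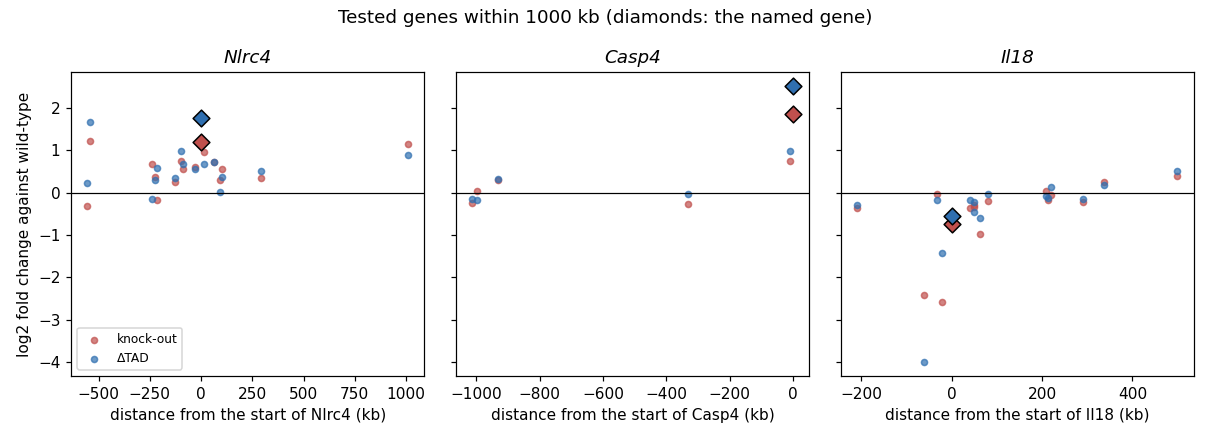
Log2 fold change against WT of tested genes within 1000 kb of Nlrc4, Casp4 and Il18, by distance along the chromosome in kb from the start of the named gene (diamonds), KO in red and ΔTAD in blue. Near Nlrc4 most points lie above 0, near Il18 most lie under 0, and beside Casp4 the nearest point is Casp1.

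The genes closest to the 3 most changed members over the 9 libraries were found by the root mean square difference of centred log2 CPM. For Casp4 they were Hpse, the heparanase gene (0.119, with log2 1.65 in KO and 2.45 in ΔTAD), Anxa1, the gene of annexin A1 (0.129, with log2 1.58 and 2.26), and Gdf15 (0.146). The fitted changes of Gdf15, log2 2.61 ± 0.474 in KO and 3.30 ± 0.423 in ΔTAD, exceeded those of Casp4. The measure uses log2 CPM with a prior count of 2, which shrinks differences at low levels. The lectin gene Clec4a2 (0.0731), Tifa (0.0959) and Gamt (0.104) were closest to Nlrc4. Closest to Naip5 were Rab12 (0.103), Rab13 (0.104) and Zfp579 (0.111). None of these 9 genes was on the pathway lists or lay on the chromosome of the member it resembled.

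RefSeq held promoter windows for 9 of the 10 members, and Gsdmd had no entry. Windows ran from 250 bases before to 50 after the start, and 8 motifs were searched on both strands. The letters TTGCNNAA, a loose form of the C/EBP site, occurred in 10.8% of 32851 windows and in those of Nlrc4 (first base at -36), Nlrp1b (-205) and Pycard (-142), counting bases before the start as negative. The full palindrome TTGCGCAA, which the loose form contains, was in 0.18% of windows and in none of the 9. For NF-κB the letters GGGANTTCC were in 1.68% of windows and, among the members, in that of Casp4 alone, at -92 and at -39. The PU.1 letters GAGGAAGT (3.2% of windows) were in those of Aim2, Nlrp1b and Pycard. CCAAT (37.4%) was found for Aim2, Il18 and Nlrp3, in Aim2 overlapping the PU.1 letters by 1 base (the RefSeq start of Aim2 lies 69725 bases inside the GENCODE gene), and TATAAA (13.6%) for Il18 and Naip5, for both more than 150 bases before the start. The interferon-type letters GAAANNGAA (8.56%) and TTCNNNGAA (8.3%) were in none of the 9. These matches describe letters in a window and not binding.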

How the data were processed

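RNA of 9 libraries was prepared by the authors with depletion of ribosomal RNA from RNA of integrity above the study's limit. Per the submitters' processing notes Trimmomatic 0.36, HISAT2 and HTSeq were used, and the paper names other versions. Reads were aligned to GRCm38 and counted on Ensembl genes. The authors deposited unnormalized counts per gene for each library, and the mode and strand of the counting are not given in the sources used here. Lines that name no gene were left out of library sizes: 46.7% to 53.2% of records lay on genes. Depth limits precision to a floor of 3 counts.

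Symbols came from the GENCODE annotation. Counts were filtered with filterByExpr (minimum count 10, total 15), scaled by TMM and fitted with edgeR 4.0.16 (R 4.3.3), 1 mean per genotype over 9 libraries, Benjamini-Hochberg adjusted over 14312 genes and called under 0.01. The code was tested on simulated data. Levels are TMM-scaled CPM, mean ± SD of 3 libraries, and errors of log2 values are SE. A member with at most 3 counts in every library was called absent. Alternatives were DESeq2 1.42.0, limma-voom 3.58.1, other scalings and filters, pairs of genotypes, a replicate block, a chromosome offset and omission of each library. Groups came from the labels. Members, lists and tests were chosen with earlier results of these data known. Genes named from the other lists were, in each list, up to 3 a direction among the called genes with the largest change, those called in opposite directions, and some chosen after their values were seen.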

Additional observations from a re-analysis of the deposited data

How the results depend on the processing

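Each of 27 member changes was refitted under 18 alternatives: 476 of 486 values kept their direction and side of the threshold, 10 lost a call and none changed sign. Of these 10, 8 were Nlrp3 in KO against ΔTAD, called in 10 of 18 alternatives (log2 0.10 to 0.20, adjusted p 0.000502 to 0.053 over all tools). The other 2 were Casp1 in KO against ΔTAD with library size alone as the scaling (log2 -0.19, adjusted p = 0.0424) and Il18 in ΔTAD against WT without ΔTAD replicate 1. At an adjusted p under 0.05 in place of 0.01, 8, 9 and 6 members were called, Gsdmd being the one gained in KO against ΔTAD. Leaving out 1 library at a time gave 8 to 8, 8 to 9 and 4 to 5 members called, 5817 to 6679, 6422 to 7059 and 3741 to 4814 of all genes, and 28 to 35, 36 to 39 and 24 to 30 of the other pathway genes. With library size alone, other pathway genes called in KO against ΔTAD went from 29 to 19, and the share of all calls that were higher went from 52.9% to 39.6% in ΔTAD against WT and from 42.1% to 69.0% in KO against ΔTAD. The cause was not tested. The loosest filter left the Nlrp3 difference at an adjusted p of 0.0321.

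Same-numbered libraries did not deviate together (r from -0.0835 to 0.0184 over 9 pairs), so the numbers were not taken as a pairing. With the replicate number as a block, 8, 9 and 4 members were called in the 3 comparisons, Nlrp3 in KO against ΔTAD losing its call (adjusted p = 0.0157). All adjusted p are from edgeR's quasi-likelihood test where no other tool is named.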
